A study of Mus musculus with 8 samples.

Results

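Type I inner root sheath keratins are the acidic keratins made in the inner root sheath, the sleeve of cells that surrounds and moulds the growing hair shaft. The family was taken as the rows named Krt25, Krt26, Krt27 and Krt28 in both deposited tables, which gave 4 genes of 29647 with FPKM in the table of untreated libraries and 29246 in the table of 5-aza libraries. FPKM are fragments scaled by gene length in kilobases and by the total of the library. All 4 members passed the filter on low values in both tables, which asked for 15 reads over the table and, scaled to the median library, 10 reads in 2 or more libraries.

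RNA was measured in sorted hair matrix keratinocytes, the proliferating progenitors in the hair bulb, from mouse skin at postnatal day 4.5. The 4 groups, with 2 libraries each, were wild type (WT) untreated, Tet2/Tet3 double knockout with Krt14-Cre (DKO) untreated, WT after 5-aza and DKO after 5-aza. Tet2 and Tet3 encode dioxygenases that oxidise 5-methylcytosine in DNA, and Krt14-Cre is a recombinase driven by the promoter of a basal keratinocyte keratin, active in basal keratinocytes and so acting in them and the cells that arise from them. 5-aza inhibits DNA methyltransferases and was injected under the skin, 50 µg at postnatal day 2.5. The sources name 2 library kits, a SMARTER mRNA kit and a Zymo-Seq RiboFree total RNA kit, without tying either to a group. The labels do not say whether WT mice carried the Cre or whether the libraries of a group came from separate animals, so the p-values measure only the spread between these libraries.

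Keratins are intermediate filament proteins that assemble from pairs of 1 type I and 1 type II chain. The inner root sheath has its own set of both, with Krt71 to Krt74 as the type II partners of Krt25 to Krt28. The filaments are cross-linked with trichohyalin as the sheath hardens, and keratins of this set are known from inherited woolly or wavy hair.

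The members lie next to each other in the type I keratin cluster on chromosome 11 (GRCm38), all on the minus strand. Krt25 (ENSMUSG00000035831) runs from 99315516 to 99322951, Krt26 (ENSMUSG00000075570) from 99328550 to 99337966, Krt27 (ENSMUSG00000017588) from 99345565 to 99351104 and Krt28 (ENSMUSG00000055937) from 99364872 to 99374903. The gaps between them are 5598, 7598 and 13767 bases in that order, within 59388 bases in all. In GENCODE M21 each has 1 protein-coding transcript of 8 exons, with 446 codons in Krt25, 462 in Krt26, 448 in Krt27 and 462 in Krt28 before the stop. Krt26 also has a non-coding processed transcript of 7 exons.

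The 250 bases upstream of each start site are shown because the members are neighbours whose levels differed in unlike ways between genotypes, and because the genotype and 5-aza both act on the methylation of cytosine, mostly where it precedes guanine. All 4 were found among the RefSeq promoters (GRCm38.p6). They are printed 5′ to 3′ on the minus strand with each CG in capitals.

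Krt25, chr11:99322952-99323201: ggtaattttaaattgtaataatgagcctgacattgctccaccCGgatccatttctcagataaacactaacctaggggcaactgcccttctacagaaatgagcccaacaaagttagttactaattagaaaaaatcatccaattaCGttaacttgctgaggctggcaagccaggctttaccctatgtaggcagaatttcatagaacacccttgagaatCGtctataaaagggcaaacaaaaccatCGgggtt
Krt26, chr11:99337966-99338215: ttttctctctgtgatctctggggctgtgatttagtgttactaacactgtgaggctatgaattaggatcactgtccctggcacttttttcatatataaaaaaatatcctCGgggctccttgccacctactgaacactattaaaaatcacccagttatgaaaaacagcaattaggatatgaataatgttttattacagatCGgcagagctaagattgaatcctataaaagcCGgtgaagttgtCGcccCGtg
Krt27, chr11:99351119-99351368: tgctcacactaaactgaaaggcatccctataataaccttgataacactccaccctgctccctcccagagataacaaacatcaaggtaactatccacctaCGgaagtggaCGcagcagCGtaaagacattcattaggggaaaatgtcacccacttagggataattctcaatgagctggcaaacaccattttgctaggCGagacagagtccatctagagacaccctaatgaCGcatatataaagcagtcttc
Krt28, chr11:99374904-99375153: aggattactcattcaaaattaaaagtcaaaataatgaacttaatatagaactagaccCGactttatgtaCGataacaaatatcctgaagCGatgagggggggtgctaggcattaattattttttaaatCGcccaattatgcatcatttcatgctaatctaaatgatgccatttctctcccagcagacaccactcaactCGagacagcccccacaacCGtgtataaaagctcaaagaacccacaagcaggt

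These windows held 4 CG in Krt25, 5 in Krt26, 5 in Krt27 and 6 in Krt28, beside a median of 6 and quartiles of 2 and 16 over all 32851 RefSeq windows of that length. The letters TATAAA, searched on both strands, began at position -30 from the start site in Krt25, Krt26 and Krt28, and at -15 from the RefSeq start of Krt27, which lies 14 bases upstream of the GENCODE start. Krt26 held TATAAA also at -158. Of all windows, 12.4% held TATAAA on either strand. AGATAA, letters of a GATA site, began at -194 in Krt25 and at -183 in Krt27, and 9.99% of all windows held them. CTTTGAT, letters of a LEF/TCF site, were in none of the 4 windows on either strand and in 3.2% of all windows. No methylation or binding was measured in these libraries, and these matches are a description of the letters alone.

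The coding sequences were similar enough to ask whether reads could be shared. Aligned coding bases were 84.6% identical between Krt25 and Krt27, 78.9% between Krt25 and Krt28, 78.5% between Krt27 and Krt28, and 69.4% to 71.9% between Krt26 and the others. The longest exact run shared by 2 coding transcripts was 105 bases in Krt25 and Krt27, 87 in Krt25 and Krt28 and 53 in Krt27 and Krt28, all shorter than the stated read length of 150 bases. Reads came as pairs, 2 per fragment, so a read trimmed to within such a run could be placed only through its mate. Both deposited tables list reads with no unique alignment apart from genes.

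Depth was 19528602 to 22837436 reads per untreated library and 39493929 to 58353167 per 5-aza library, with 11825515 to 14132115 and 16744915 to 23512270 reads in listed genes. The tables were normalized separately, so levels are set side by side across them and no test compares 5-aza with untreated. Of 10 hair matrix markers 9 were listed and all 9 were above 1 FPKM in every library, with sums of 219.98 to 356.5 FPKM, and Krt85 was not analysed here. Tet3 was 10.4 to 11.8 FPKM in WT and 5.99 to 7.31 FPKM in DKO libraries, and Tet2 was 3.23 and 3.28 against 2.72 and 2.55 FPKM untreated and 1.81 and 2.00 against 1.58 and 1.56 FPKM after 5-aza. These values cover the whole gene and do not test the deletion. Markers of 5 fibroblast genes summed to 458.3 FPKM in WT replicate 1 and to 1127 to 1342 FPKM in the other 3 untreated libraries. Summed markers of 6 dermal papilla genes were 189.1 and 207.4 FPKM in untreated WT and 98.3 and 89.7 FPKM in untreated DKO libraries, and those of 6 basal and outer root sheath genes were 465.9 and 561.9 against 840.6 and 948.2 FPKM. Krt5 was the largest part of the basal and outer root sheath sum, at 297.7 and 372.0 against 544.2 and 578.0 FPKM. Krt5, Krt14, Krt15 and Itga6 were higher in DKO without overlap, and the groups of Krt17 and Itgb4 overlapped. Immune markers summed to 2.37 and 3.55 against 8.28 and 10.4 FPKM in untreated WT and DKO. After 5-aza, basal and outer root sheath markers summed to 429.8 and 344.1 FPKM in WT and 625.2 and 740.2 FPKM in DKO, and 2 companion layer markers to 45.2 and 51.1 against 76.6 and 68.6 FPKM. Dermal papilla markers summed to 90.7 and 35.6 FPKM in WT and 14.0 and 32.9 FPKM in DKO after 5-aza. Melanocyte markers differed widely within each genotype after 5-aza, with sums of 92.6 and 19.5 FPKM in WT and 26.4 and 133.5 FPKM in DKO. The part of these markers in the results was not tested. In such bulk samples fewer cells of a type and less RNA per cell cannot be told apart.

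Without treatment, the DKO libraries had almost lost Krt28, held less Krt25 and Krt26, and held more Krt27, which lies between Krt26 and Krt28. Krt28 fell 29.2-fold, from 70.5 ± 0.231 FPKM in WT to 2.42 ± 0.618 FPKM in DKO (SD, n = 2 each), and was the 1 gene of 17339 that passed the adjusted threshold of 0.05, 0.00577% of the genes tested. Mean Krt25 was 2.20-fold and mean Krt26 2.48-fold lower in DKO, and mean Krt27 was 3.76-fold higher, at 71.8 ± 20.1 against 19.1 ± 6.66 FPKM. These 3 did not pass (adjusted p = 0.241, 0.364 and 0.179, limma).

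Krt28 was 70.4 and 70.7 FPKM in the WT libraries and 1.98 and 2.85 FPKM in the DKO libraries. These values rest on 2597 and 2603 reads in WT and on 71 and 90 reads in DKO. Both WT libraries were high and nearly equal, and both DKO libraries were low, with no value in between. On log2(FPKM + 1), a scale that understates changes of low genes, Krt28 fell by 4.40 ± 0.15 (SE, n = 2 libraries per group, adjusted p = 0.0235, limma). This was the largest difference in size of all genes tested, in either direction. The call was lost without any 1 of the 4 libraries, WT replicates 1 and 2 and DKO replicates 1 and 2, while the difference stayed between -4.59 and -4.21 (adjusted p from 0.0739 to 0.326, limma). It was also lost with no filter, with a filter at a mean of 0.1 FPKM and without the variance trend (adjusted p = 0.264, 0.146 and 0.0712, limma).

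Krt25, the member farthest from Krt28 in the cluster, was 65.1 and 63.0 FPKM in the untreated WT libraries and 22.3 and 36.03 FPKM in the DKO libraries. The DKO libraries differed from each other more than the WT libraries did, and the groups did not overlap. The log2 difference was -1.15 ± 0.25 (adjusted p = 0.241, limma). With voom weights on recovered reads it passed at -1.18 (adjusted p = 0.0477, limma).

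Krt27 was 23.8 and 14.4 FPKM in the untreated WT libraries and 57.6 and 86.0 FPKM in the DKO libraries. Here every DKO library was above every WT library, the opposite of its neighbours on both sides. The log2 difference was 1.87 ± 0.31 (adjusted p = 0.179, limma), and with voom weights 1.93 (adjusted p = 0.0182, limma). By size of the difference, Krt27 ranked 34 and Krt25 93 among the 17339 genes.

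Krt26 was low in every library. It was 0.536 and 0.688 FPKM in untreated WT and 0.118 and 0.376 FPKM in untreated DKO, from 75, 96, 16 and 45 reads. The DKO libraries were below the WT libraries, and the log2 difference was -0.38 ± 0.12 (adjusted p = 0.364, limma). With a pseudocount of 0.1 in place of 1 the difference was -1.14, and with voom weights -1.55 (adjusted p = 0.408 and 0.207, limma). Without 1 library it ranged from -0.53 to -0.23, the smallest without DKO replicate 1 (adjusted p from 0.372 to 0.681, limma).

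The level of Krt26 also depends on the length that was used. The deposited length of 6123 bases equals the sum over all annotated exons of both its transcripts, so that exons they share are counted more than once, while its exons cover 3668 bases. The other 3 members have 1 transcript each, and their deposited lengths of 1981, 1542 and 1616 bases differ from the annotation by 8 bases. At the covered length Krt26 would be 1.67-fold higher in every library, 0.895 and 1.15 FPKM in untreated WT and 0.196 and 0.628 FPKM in untreated DKO. It would still be the lowest of the 4 members in every library.

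**Figure D1:**
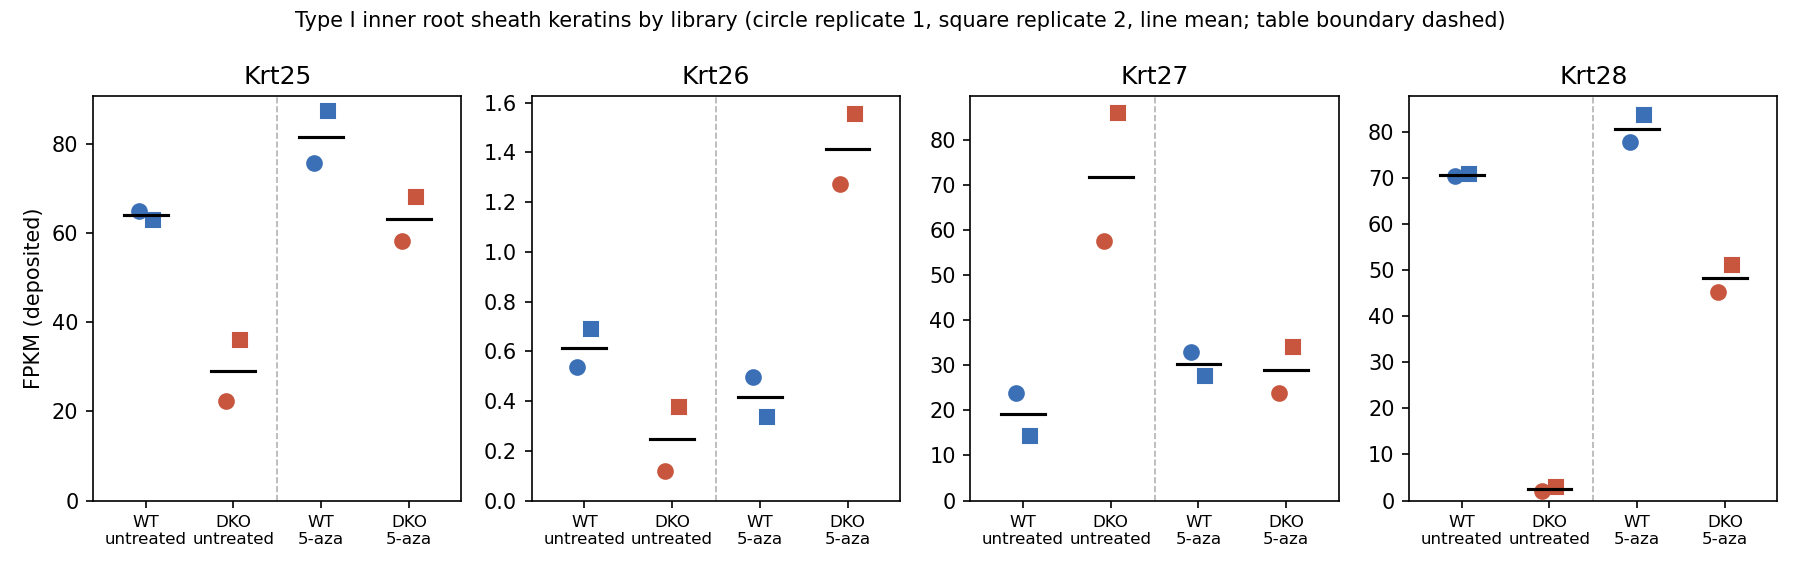
Deposited FPKM (vertical axis, linear, a scale of its own for each gene) of the 4 members in the 8 libraries by group, with circles for replicates 1, squares for replicates 2 and lines at the mean of 2 libraries. Krt28 was 1.98 and 2.85 FPKM in untreated DKO and 45.2 to 83.5 FPKM in the 5-aza libraries, while Krt27 was highest in untreated DKO.

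The groups of all 4 members did not overlap in the untreated table, 1 higher and 3 lower in DKO, and 43.4% of the genes tested did not overlap in either direction (24.1% higher, 19.3% lower). In the authors' deposited table, which holds their DESeq2 results, 3 of 4 members had an adjusted p under 0.05, beside 1.28% of its genes (0.793% higher and 0.486% lower). In the authors' deposited table the log2 difference, DKO over WT, was -4.91 for Krt28 (adjusted p = 2.5e-150), -1.17 for Krt25 (1.1e-07) and 1.87 for Krt27 (0.0144). The authors' deposited table gave -1.34 for Krt26 (adjusted p = 0.393).

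The 2 pairs of same-numbered libraries were looked at apart, because untreated replicates 1 and 2 differed in sex-linked RNA in both genotypes. For WT, Xist, transcribed from the inactive X chromosome, stood at 82.1 FPKM in replicate 1 and 0.327 FPKM in replicate 2, and for DKO at 74.4 and 1.19 FPKM. The log2 difference of Krt28 was -4.58 in the pair of replicates 1 and -4.22 in the pair of replicates 2. For Krt27 it was 1.24 and 2.5, for Krt25 -1.5 and -0.79, and for Krt26 -0.46 and -0.29.

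After 5-aza, mean Krt28 was 1.67-fold and mean Krt25 1.29-fold lower in DKO than in WT, mean Krt27 was 28.9 ± 7.21 against 30.3 ± 3.88 FPKM (SD, n = 2 each), and mean Krt26 was 3.39-fold higher. None of the 4 passed over all 16856 genes tested, of which 0 passed and 1507, or 8.94%, had an unadjusted p under 0.05 with limma. With voom weights limma called 0 genes too. In these libraries Xist was 16.9 and 23.1 FPKM in WT and 4.60 and 3.65 FPKM in DKO, and the Y-linked Ddx3y was 1.24 and 0.917 against 2.08 and 2.00 FPKM, a difference whose part in the results was not tested. The authors' deposited table has 0.708% of its genes under an adjusted p of 0.05, and Krt28, lower (0.161% of genes), and Krt26, higher (0.547%), are among them.

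Krt28 was 77.6 and 83.5 FPKM in WT and 45.2 and 51.1 FPKM in DKO after 5-aza, from 2882 to 6183 reads. Both DKO libraries stayed below both WT libraries, and the fold was 1.67 after 5-aza beside 29.2 untreated. The log2 difference was -0.73 ± 0.11 (adjusted p = 0.341, limma). It was -0.81 in the authors' deposited table, with an adjusted p of 7.2e-07.

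Krt25 was 75.7 and 87.4 FPKM in WT and 58.3 and 68.2 FPKM in DKO after 5-aza. The groups did not overlap, and the log2 difference was -0.36 ± 0.14 (adjusted p = 0.565, limma). Krt27 was 33.0 and 27.5 FPKM in WT and 23.8 and 34.0 FPKM in DKO, the only member whose groups overlapped. Its log2 difference of -0.08 ± 0.20 was smaller than its error (adjusted p = 0.94, limma), and turned to 0.05 without WT replicate 1 and to 0.17 without DKO replicate 1.

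Krt26 was 0.499 and 0.335 FPKM in WT and 1.27 and 1.55 FPKM in DKO after 5-aza, from 144, 94, 308 and 555 reads. Both DKO libraries were above both WT libraries, the reverse of the untreated table, and 2.57% of the genes in both fits had that pattern (4.04% with the mirrored pattern counted too). The log2 difference was 0.77 ± 0.10 (adjusted p = 0.34, limma). With a pseudocount of 0.1 it was 1.56 and with voom weights 1.80 (adjusted p = 0.323 and 0.162, limma). Krt26 was 1.70 higher in DKO in the authors' deposited table, with an adjusted p of 2.5e-06. Of the genes tested after 5-aza, 39.6% had groups that did not overlap, 28% with DKO higher and 11.6% with DKO lower.

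**Figure D2:**
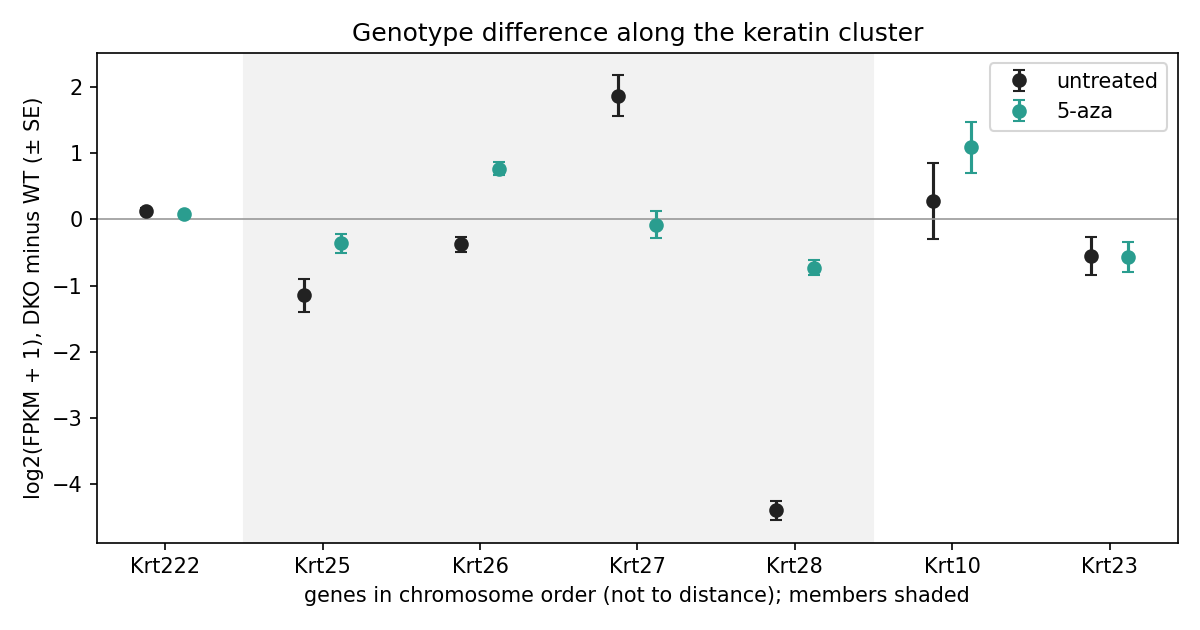
Difference between DKO and WT in log2(FPKM + 1) (vertical axis) with its SE from limma for the members, shaded, and for 3 keratin genes of the same cluster that passed the filter, in chromosome order and not to distance, untreated in black and after 5-aza in green. In the untreated libraries Krt27 is at 1.87 between Krt26 at -0.38 and Krt28 at -4.40, and after 5-aza the 4 members lie between -0.73 and 0.77.

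Whether the genotype difference itself differed between the untreated and the 5-aza table was tested as an interaction over 8 libraries and 15699 genes. In this test too, 5-aza cannot be told apart from table or library kit. Xist and Ddx3y set the genotypes apart after 5-aza and not untreated, and their part in the interaction was not tested. A scaling shared by both genotypes of a table drops out of the interaction only where FPKM are high in both genotypes. That does not hold for Krt26, nor for Krt28 at 1.98 and 2.85 FPKM in untreated DKO. With a pseudocount of 0.1 the change for Krt28 was 4.09 in place of 3.67 (adjusted p = 0.0112, limma). For Krt28 the difference of DKO from WT was less negative after 5-aza by 3.67 ± 0.20 on the log2 scale (adjusted p = 0.00736, limma), and no gene had a larger change in either direction. It was 1 of 3 genes called, 0.0191% of those tested, and the only one with a positive interaction (0.00637%), since the other 2 were negative (0.0127%). The call was lost without any 1 of the 4 libraries of the 5-aza table, replicate 1 or 2 of either genotype (adjusted p from 0.0599 to 0.073, limma), and held without each untreated library (0.0211 to 0.0381). It was also lost with the replicate number as a block (adjusted p = 0.141, limma), and the untreated replicate numbers are those that differ in Xist. For Krt27 the change was -1.95 ± 0.42, for Krt26 1.15 ± 0.17 and for Krt25 0.78 ± 0.31, and none of these passed (adjusted p = 0.669, 0.328 and 0.883, limma). Without 1 library the change for Krt25 ranged from 0.45, without untreated DKO replicate 1, to 1.12. All 4 members had an unadjusted p under 0.05 here, beside 5.61% of the genes.

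Set side by side, Krt28 was at 1.98 and 2.85 FPKM in untreated DKO and at 45.2 and 51.1 FPKM in DKO after 5-aza, while it was 70.4 to 83.5 FPKM in the 4 WT libraries of both tables. Krt27 was at 57.6 and 86.0 FPKM in untreated DKO, and from 14.4 to 34.0 FPKM in the other 6 libraries. Krt25 was 22.3 and 36.03 FPKM in untreated DKO and 58.3 to 87.4 FPKM in the other 6. In deposited FPKM, untreated DKO was thus the group that stood apart for these 3 members. The tables also differ in depth and in markers of other cells. Reads in listed genes were 55.8% to 62.0% of the library total untreated and 38.4% to 42.4% after 5-aza. FPKM are scaled to that total, so levels in the 5-aza libraries would be higher beside the untreated ones if scaled to reads in listed genes. Summed over 5 interfollicular differentiation genes, 108.3 to 292.5 FPKM were found in the untreated and 2.91 to 11.3 FPKM in the 5-aza libraries, and the fibroblast genes summed to 67.0 to 141.8 FPKM after 5-aza. Library kit, table and 5-aza cannot be told apart for levels across tables.

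Shares within a library do not depend on how the library was scaled. Of the summed FPKM of the 4 members, Krt28 made up 44.0% and 47.5% in untreated WT and 2.41% and 2.28% in untreated DKO. Krt27 made up 14.9% and 9.66% in untreated WT and 70.2% and 68.7% in untreated DKO. Krt25 made up 40.7% and 42.4% in WT and 27.2% and 28.8% in DKO, and Krt26 under 0.5% in each of these libraries. So the most abundant member by FPKM was Krt28 in both untreated WT libraries and Krt27 in both untreated DKO libraries.

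After 5-aza Krt25 and Krt28 were above Krt27 and Krt26 in all 4 libraries, as they were in untreated WT. The most abundant member by FPKM was Krt28 in WT replicate 1 and Krt25 in WT replicate 2 and in both DKO libraries. Krt28 made up 41.5% and 42.0% in WT and 35.1% and 33.0% in DKO, and Krt25 40.5% and 44.0% in WT and 45.4% and 44.0% in DKO. Krt27 made up 17.7% and 13.9% in WT and 18.5% and 22.0% in DKO. Krt26 made up 0.267% and 0.169% in WT and 0.991% and 1.00% in DKO.

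Averaged over the 2 tables, the share of Krt27 was 30.8 percentage points higher in DKO, and for Krt28 the difference was -25.6 points. In an exact two-sided permutation test of genotype within tables, each gave p = 0.0556, the smallest that 36 arrangements allow (0.111 adjusted over 4 shares), so that no share could pass 0.05. Krt25 and Krt26 gave p = 0.333 each by the same exact test, and their differences had opposite signs in the 2 tables.

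**Figure D3:**
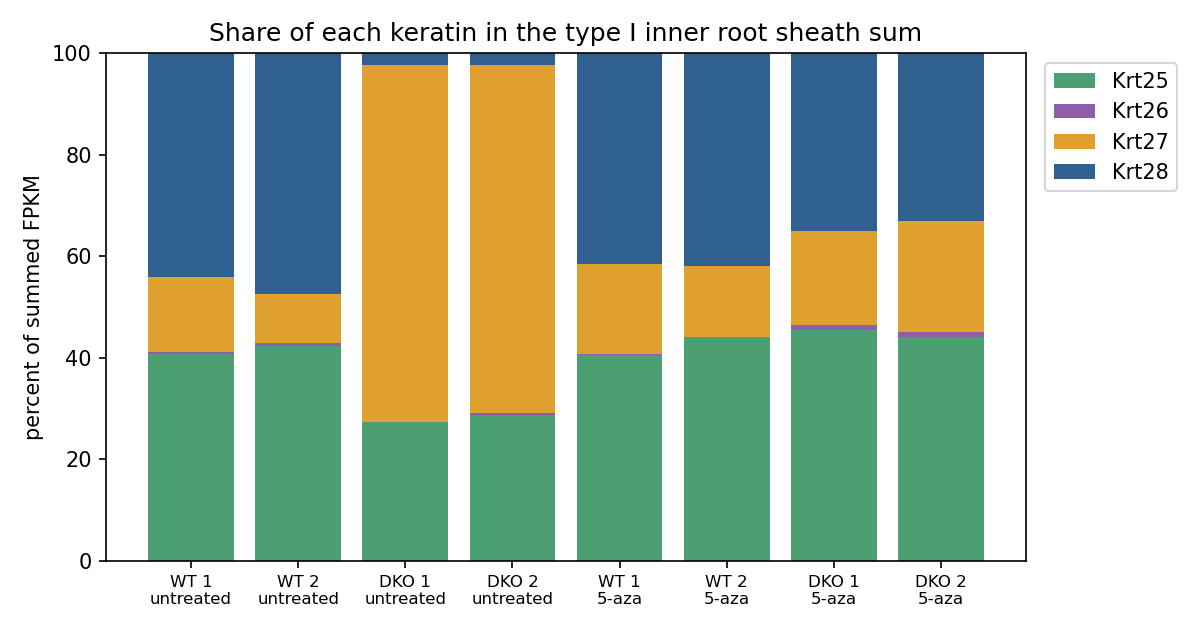
Percent of the summed FPKM of Krt25, Krt26, Krt27 and Krt28 (vertical axis) in each of the 8 libraries. Krt27 fills 70.2% and 68.7% of the bars of untreated DKO and 9.66% to 22.0% of the other 6 bars.

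Read neighbour by neighbour, the log2 ratio of Krt27 to Krt28 was -1.56 and -2.30 in untreated WT and 4.86 and 4.91 in untreated DKO. The ratio was nearly the same in both DKO libraries, although their levels of Krt27 were 57.6 and 86.0 FPKM. After 5-aza the ratio was -1.23 and -1.60 in WT and -0.92 and -0.59 in DKO. Over both tables the ratio was 3.74 higher in DKO (exact two-sided permutation p = 0.0556, 0.167 adjusted over 3 neighbour ratios).

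The log2 ratio of Krt26 to Krt27 was -5.47 and -4.38 in untreated WT and -8.93 and -7.84 in untreated DKO. After 5-aza it was -6.05 and -6.36 in WT and -4.23 and -4.45 in DKO, so that its genotype difference was -3.46 untreated and 1.87 after 5-aza. The ratio of Krt25 to Krt26 was 6.92 and 6.52 in untreated WT and 7.57 and 6.58 in untreated DKO, with DKO higher by 0.35 on average. After 5-aza it was 7.25 and 8.03 in WT and 5.52 and 5.46 in DKO, where DKO was lower by 2.15. Over both tables these 2 ratios gave exact permutation p of 0.5 and 0.278. Krt28 and Krt25, which are not neighbours, had ratios of 1.08 and 1.12 in untreated WT, 0.0887 and 0.0791 in untreated DKO, 1.03 and 0.955 in WT after 5-aza and 0.774 and 0.749 in DKO after 5-aza.

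Next to the members on the chromosome lie further keratin genes. Krt10, a keratin of the differentiating epidermis and the next gene after Krt28, was 167.7 and 63.4 FPKM in untreated WT and 91.0 and 173.9 FPKM in untreated DKO. The 2 groups overlapped, and the log2 difference was 0.28 ± 0.57 (adjusted p = 0.903, limma). After 5-aza Krt10 was 1.09 and 0.703 FPKM in WT and 1.74 and 4.87 FPKM in DKO (adjusted p = 0.544, limma). Krt222, on the far side of Krt25, was 0.0974 to 0.238 FPKM in untreated libraries and Krt23 was 5.44 to 13.3 FPKM, with adjusted p of 0.399 and 0.548 (limma). Krt24, Krt12 and Krt20 were at most 0.0413, 0.0977 and 0.229 FPKM in any library and did not pass the filter in either table. None of the 3 flanking genes tested passed in either comparison with limma, and in the authors' deposited table Krt10 was 1.83 higher in DKO after 5-aza (adjusted p = 0.015).

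Of the type II partners, the 2 abundant ones were higher in untreated DKO, as Krt27 was. Krt71, the main type II keratin of the inner root sheath in these libraries, was 88.4 and 58.1 FPKM in untreated WT and 143.5 and 216.9 FPKM in untreated DKO. Krt73 was 33.6 and 23.4 FPKM in WT and 65.4 and 77.8 FPKM in DKO. The DKO libraries were above the WT libraries for both, a pattern that 24.1% of the genes tested had, and neither passed (adjusted p = 0.286 and 0.179, limma). Krt72 was 1.21 to 2.91 FPKM and Krt74 0.0669 to 0.2 FPKM in the untreated libraries. In the authors' deposited table Krt73 alone of the 4 had an adjusted p under 0.05 (1.29 higher in DKO, adjusted p = 3.2e-10).

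After 5-aza the groups of all 4 type II genes overlapped, and 39.6% of the genes tested had groups that did not overlap. Krt71 was 118.1 and 154.0 FPKM in WT and 124.0 and 131.6 FPKM in DKO, and Krt73 was 79.5 and 62.6 FPKM in WT and 40.1 and 81.6 FPKM in DKO. Their log2 differences were -0.08 ± 0.17 and -0.30 ± 0.37 (adjusted p = 0.934 and 0.868, limma).

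Summed type I FPKM were 159.8 and 148.8 in untreated WT and 81.9 and 125.3 in untreated DKO, and summed type II FPKM were 124.7 and 82.9 in WT and 210.8 and 297.7 in DKO. The type I sum over the type II sum was thus 1.28 and 1.79 in untreated WT and 0.389 and 0.421 in untreated DKO. After 5-aza it was 0.924 and 0.904 in WT and 0.776 and 0.714 in DKO. DKO was below WT in both tables, by more in the untreated table. With every gene at its covered exon length the ratio was 1.27 and 1.79, 0.387 and 0.42, 0.918 and 0.9, and 0.778 and 0.714 in the same order. These sums were chosen after the values were seen and are given as a description.

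**Figure D4:**
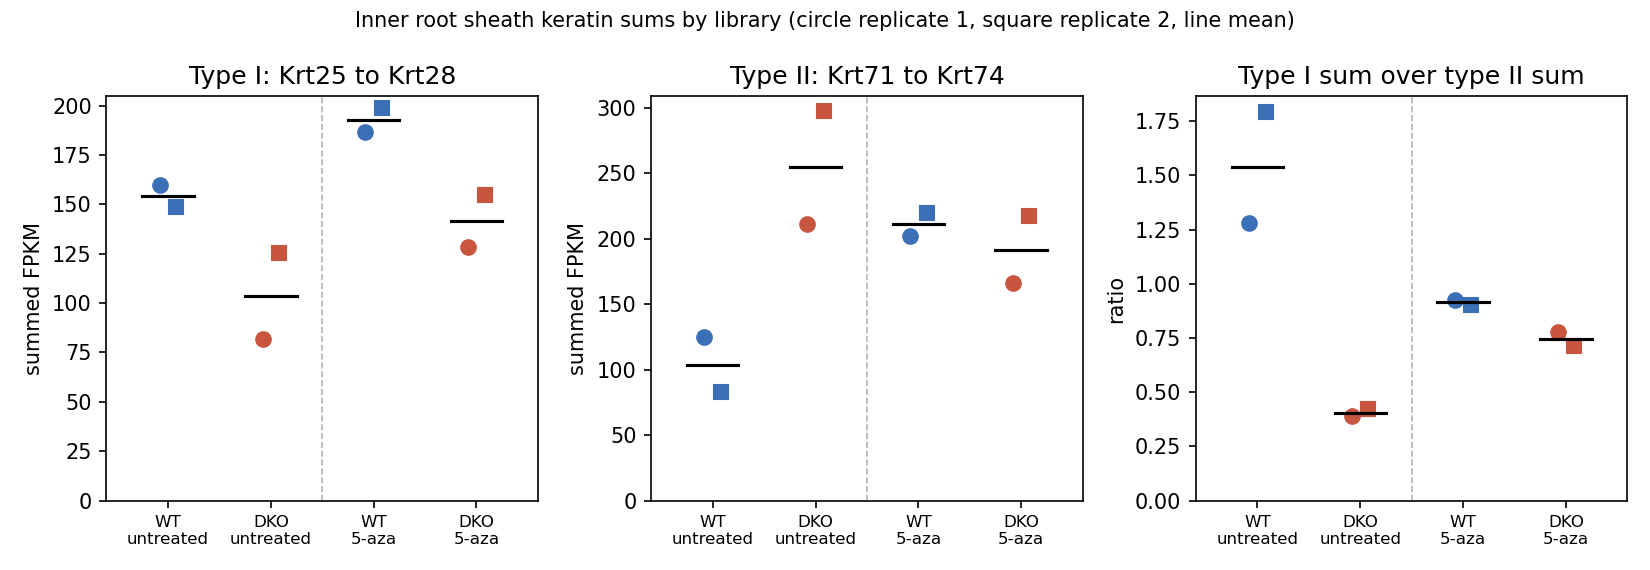
Summed FPKM (vertical axes of the left and middle panels) of the 4 type I and the 4 type II inner root sheath keratins and their ratio (right panel) in the 8 libraries by group, with lines at the mean of 2 libraries. In untreated DKO the type I sum is 81.9 and 125.3 FPKM and the type II sum 210.8 and 297.7 FPKM, at a ratio of 0.389 and 0.421.

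Of 26 genes listed as partners and regulators of the inner root sheath, all passed the filter. Not all are particular to that sheath, since Msx2, Lef1, Hoxc13, Dlx3 and Foxn1 are also among the hair matrix markers. The counts of the list therefore do not describe the inner root sheath alone. With limma 0 passed the adjusted threshold in either comparison, beside 1 of 17339 genes untreated and 0 of 16856 after 5-aza. At an unadjusted p under 0.05, which 11.5% of all genes had untreated and 8.94% after 5-aza, 10 were higher and 3 lower in untreated DKO, and 7 were higher and 1 lower after 5-aza. The median log2 difference was 0.38 in untreated libraries and 0.08 after 5-aza, beside 0.01 and 0.03 over all genes tested. In the authors' deposited table, 9 had an adjusted p under 0.05 with DKO higher and 2 with DKO lower in the untreated libraries, beside 0.793% and 0.486% of its genes. In the authors' deposited table after 5-aza, 2 were higher and 0 lower, beside 0.547% and 0.161%.

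Tchh, which encodes trichohyalin, the matrix protein that embeds the sheath keratins, was 6.79 and 4.91 FPKM in untreated WT and 17.9 and 34.4 FPKM in untreated DKO (adjusted p = 0.186, limma). After 5-aza it was 30.5 and 19.8 FPKM in WT and 10.3 and 29.99 FPKM in DKO, and the groups overlapped. Tgm3, a transglutaminase that cross-links these proteins, was 2.91 and 3.599 FPKM in untreated WT and 5.00 and 8.31 FPKM in DKO (adjusted p = 0.327, limma). Padi3, a peptidylarginine deiminase that acts on trichohyalin, was 3.65 and 3.93 FPKM in untreated WT and 2.39 and 3.78 FPKM in DKO (adjusted p = 0.675, limma).

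Gata3, a transcription factor needed for inner root sheath cells, was 15.4 and 15.1 FPKM in untreated WT and 14.7 and 14.7 FPKM in untreated DKO. That difference of -0.05 ± 0.09 on the log2 scale is smaller than its error (adjusted p = 0.897, limma). After 5-aza Gata3 was 22.8 and 23.6 FPKM in WT and 21.3 and 19.9 FPKM in DKO (adjusted p = 0.629, limma). Dlx3, a homeodomain factor of the matrix and its descendants, was 65.8 and 96.0 FPKM in untreated WT and 74.6 and 86.6 FPKM in untreated DKO (adjusted p = 0.989, limma). Other regulators of the list, named after their values were seen, had groups that did not overlap untreated, as 43.4% of the genes tested did not. The groups of Gata3 and Lef1 did not overlap either. Hoxc13, a homeodomain factor of the hair shaft, was 9.49 and 15.8 FPKM in untreated WT and 24.4 and 30.7 FPKM in untreated DKO. Foxn1, the forkhead factor mutated in nude mice, was 3.72 and 3.31 FPKM in WT and 7.08 and 8.10 FPKM in DKO. Ovol1, a zinc finger factor, was 11.7 and 11.1 against 17.2 and 19.3 FPKM, and Trps1, a GATA-type zinc finger factor, was 14.1 and 10.7 against 8.91 and 8.05 FPKM. None of these 4 passed with limma (adjusted p = 0.268, 0.117, 0.177 and 0.358), and all 4 had an adjusted p under 0.05 in the authors' deposited table (7.6e-06, 4.2e-05, 0.00378 and 0.0133). After 5-aza Hoxc13 was 12.99 and 11.6 FPKM in WT and 22.0 and 23.1 FPKM in DKO (adjusted p = 0.286, limma). Foxn1 was then 5.47 and 7.52 against 10.5 and 8.68 FPKM, and Ovol1 10.9 and 11.9 against 16.1 and 15.1 FPKM. Trps1 was 3.95 and 2.97 FPKM in WT and 3.35 and 3.97 FPKM in DKO after 5-aza, and its groups overlapped. These 3 did not pass (adjusted p = 0.523, 0.363 and 0.944, limma).

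The genes most like each member were sought by Pearson's r over 8 libraries of log2(FPKM + 1), centred on the mean of each table, among 371 genes with a mean of at least 1 FPKM in both tables and a range of at least 1. The libraries share tables and groups, so r is a description only. Krt27 was most like Cldn4 (r = 0.965), a claudin of tight junctions, and then the type II keratins Krt71 (0.947) and Krt73 (0.941). Cldn4 was 10.9 and 7.81 FPKM in untreated WT and 15.01 and 21.9 FPKM in untreated DKO.

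Krt28 was most like Hist1h2bn (r = 0.964), a histone H2B gene, Scel (0.96), which encodes sciellin of the cornified envelope, and P2rx7 (0.959), an ATP-gated channel. Scel was 6.53 and 5.31 FPKM in untreated WT and 1.36 and 1.44 FPKM in untreated DKO, and 4.32 to 5.45 FPKM after 5-aza in both genotypes. Krt25 was most like Gm24474 (0.972), Hist1h2bn (0.908) and Gm19353 (0.903). Krt26 was most like Krt17 (0.824), a keratin of the outer root sheath, Foxq1 (0.818), a forkhead factor of the hair shaft, and Snora21 (0.739). Among the members themselves r was 0.933 between Krt25 and Krt28, -0.892 between Krt27 and Krt28 and -0.712 between Krt25 and Krt27, and from -0.365 to 0.287 for Krt26 with the others.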

How the data were processed

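RNA-seq of 8 libraries in 4 groups came as 2 tables, 1 untreated and 1 after 5-aza. Per the submitters' processing notes, Trim Galore, STAR, HTSeq and DESeq2 were used with GRCm38 (mm10). Versions and the strand setting are not given in the sources used here. The deposited library values are FPKM, worked out from the values: FPKM times the deposited length gave whole reads for 100% of values within 0.001. The deposited log2 fold changes, scores (Wald statistics), p-values and mean signal (baseMean) are the authors', per the file headers, with the log2 sign reversed here to DKO over WT. Rows that name no gene (3 and 5, with 40.4% and 59.9% of the summed deposited mean signal) were left out. So were 376 identifiers without a name or FPKM in the 5-aza table.

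Differences on log2(FPKM + 1) were tested with limma 3.58.1 (R 4.3.3) with a variance trend, in each table alone, on genes with 15 reads over the table and, scaled to the median library, 10 reads in 2 libraries. P-values were Benjamini-Hochberg adjusted over all genes with a threshold of 0.05. The interaction was fitted over both tables. Shares and ratios were compared by exact permutation, also in R 4.3.3. The limma fit of each table alone was also run on simulated data, with a spread that was set and not taken from these libraries. The interaction and the permutation test were not simulated. Sequences came from GENCODE M21 and RefSeq (GRCm38.p6).

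The members, the 6 flanking genes, the list of 26 partners and the markers were chosen with earlier results of these data known. Values are named for the members, the flanks, Tet2, Tet3, 9 genes of that list and the 3 genes most like each member. Xist, Ddx3y, the type sums, Hoxc13, Foxn1, Ovol1 and Trps1 were added after the values were seen. Same-numbered libraries deviated with a correlation of 0.03 in the untreated and -0.59 in the 5-aza table, and no label ties them, so numbers were not taken as pairs. Alternatives were a pseudocount of 0.1, other filters and scalings, no variance trend, a replicate block, 1 fit of all 8 libraries, voom weights, and leaving out each library.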

Additional observations from a re-analysis of the deposited data

Results flagged for a closer look

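Krt28 stood out because its genotype difference was not the same in the 2 tables. The difference of DKO from WT was higher by 3.67 on the log2 scale after 5-aza than untreated (adjusted p = 0.00736, limma, interaction over 8 libraries). Both DKO libraries were below both WT libraries in each table.

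Krt26 stood out because its groups lay apart in opposite directions, with both untreated DKO libraries below and both 5-aza DKO libraries above the WT libraries of their table. The interaction was 1.15 on the log2 scale and did not pass (adjusted p = 0.328, limma). Of the genes in both fits, 635 (4.04%) lay apart in opposite directions in the 2 tables.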

How the results depend on the processing

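Of the alternative values computed, 241 listed at the outset and 9 chosen after seeing the data kept their direction and their side of the threshold or stayed within 1.5 times of a count. Untreated, the count of genes called (1) became 8 with a pseudocount of 0.1, 0 with no filter, 0 at a mean of 0.1 FPKM, 0 without the variance trend, 111 with all 8 libraries in 1 fit, 147 with voom, and 0 to 1 without 1 library. Krt28 stayed at -4.40 but lost its call with no filter, at a mean of 0.1 FPKM and without the trend, and ranged from -4.59 to -4.21 without 1 library. With voom Krt25 (-1.18) and Krt27 (1.93) passed. After 5-aza, 0 genes became 1 with all 8 libraries in 1 fit and stayed 0 without 1 library. Krt27 after 5-aza ranged from -0.33 to 0.17, turning to 0.05 without WT replicate 1 and 0.17 without DKO replicate 1. The 3 genes of the interaction became 1 with a pseudocount of 0.1, 1 at a mean of 0.1 FPKM, 1 without the trend and 0 to 2 without 1 library, where Krt28 ranged from 3.48 to 3.85. The share of Krt25 was -5.55 points over both tables and 2.45 after 5-aza alone, that of Krt26 0.301 and -0.177 untreated alone, the ratio of Krt25 to Krt26 -0.90 and 0.35 untreated alone, and that of Krt26 to Krt27 -0.80 and 1.87 after 5-aza alone. The cause was not tested. The replicate block, whose numbers match in sex-linked RNA in the untreated table but are not said to pair the libraries, gave 13 genes untreated, 0 after 5-aza and 0 in the interaction (Krt28 3.67, adjusted p = 0.141, limma). Crossed pairing, a replicate block chosen after seeing the data, gave 91 genes after 5-aza. Krt26 rests on 16 to 96 reads in the untreated libraries, which limits its precision.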
